A study of Homo sapiens with 8 samples.

Results

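Ribosome footprints of 6 receptor tyrosine kinase genes with a role in neuroblastoma (ALK, RET, NTRK2, NTRK3, FGFR1 and ERBB2) were examined among the 60651 genes of the deposited table. The genes were taken by symbol after matching the Ensembl identifiers with the version suffix ignored, and each of the 6 symbols matched 1 row. The samples were 8 ribosome profiling libraries of wild-type IMR32 cells, an established human neuroblastoma line. In 4 libraries the cells had received CR31B, a silvestrol analog of the rocaglate class, which acts on the RNA helicase eIF4A. In the other 4 they had received the solvent DMSO. Exposure was 6 h, both groups then had cycloheximide before harvest, and the footprints were cut from a gel at 28 to 30 nt. All libraries came from 1 cell line, and nothing in the labels says how the 4 biological replicates of a group were separated, so p-values measure the spread between these libraries.

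Receptor tyrosine kinases span the plasma membrane, bind a ligand outside the cell and phosphorylate each other on tyrosines inside it. Adaptor proteins dock on those tyrosines and switch on RAS and the MAPK cascade, and phosphatases, ubiquitin ligases and Sprouty-family proteins turn the signal down. In neuroblastoma ALK is the receptor most often mutated, and RET, the TRK receptors, FGFR1 and ERBB2 are expressed to differing degrees. eIF4A unwinds the 5′ untranslated region (5′ UTR) of mRNAs so that ribosomes can scan to the start codon. Rocaglates clamp eIF4A onto RNA, with a preference for runs of purines.

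Because initiation is the step that CR31B acts on, the start-codon context of 5 of the 6 receptors is shown first, from the principal GENCODE release 29 transcript of each gene (GRCh38). The sequence and position of FGFR1 are not given here. Each line holds 12 bases of the 5′ UTR, the start codon in capitals and 15 coding bases.
ALK: tcctccggcgggATGggagccatcgggctc
RET: cgcgcacgggcgATGgcgaaggcgacgtcc
NTRK3: cagcgatcggagATGgatgtctctctttgc
ERBB2: gcagtgagcaccATGgagctggcggccttg
NTRK2: tggctgctagggATGtcgtcctggataagg

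ALK lies at chr2:29192774-29921566 on the minus strand, RET at chr10:43077027-43130351 on the plus strand and NTRK3 at chr15:87859751-88256768 on the minus strand. ERBB2 lies at chr17:39687914-39730426 and NTRK2 at chr9:84668551-85027070, both on the plus strand. The annotated 5′ UTR was 942 nt in FGFR1 and 907 nt in ALK, longer than in 97.3% and 96.9% of 19579 protein-coding genes, whose median was 180 nt. It was 483 nt in NTRK2, 322 nt in NTRK3, 232 nt in RET and 159 nt in ERBB2. These were longer than in 87.2%, 73.5%, 60.1% and 45.2% of the genes. The GC content of the 5′ UTR was 66.2% in ALK, 73.4% in FGFR1, 68.3% in NTRK3, 71.6% in NTRK2, 78.0% in RET and 80.5% in ERBB2, against a median of 63.8%. In the last 100 bases before the start codon, the longest purine run was 11 bases in FGFR1, 9 in NTRK2, 8 in ALK, 7 in NTRK3, 5 in RET and 4 in ERBB2. The median of that run was 7 over the 13612 genes with a 5′ UTR of at least 100 nt.

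Short motifs were searched on the mRNA strand of that window, a GGC repeat and a purine repeat. A run of 4 GGC triplets was found in NTRK3 only among the 6 receptors, and in 1.55% of all windows. It is shown because it was the only match among the receptors that could be tested. The 4 matched triplets are in capitals, with their first base 97 bases before the start codon. Further GGC triplets follow them in lower case.
NTRK3: ctcccacccGGCGGCGGCGGCggcggcggc
The purine motif AGAGAG was found in NTRK2 only among the 6, and in 4.69% of all windows. A match or its absence describes these letters in this window and nothing further, and the transcript isoforms that IMR32 cells use were not determined.

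Levels are in TPM, a transcript abundance that divides by transcript length. Footprints come from the coding part, so this division sets genes with long untranslated regions lower. The coding part was 2475 of 19984 nt in the NTRK3 transcript used and 3765 of 4545 nt in that of ERBB2. Orders, ranks and shares across genes are therefore approximate, and the part of transcript length in them was not tested. A footprint level combines how much mRNA a gene has and how many ribosomes each mRNA carries, and total RNA was not analysed here. TPM values are scaled to the same total in every library, so a rise or fall is relative to the other genes. A change in the amount of footprints as a whole cannot be seen in them. In bulk libraries fewer cells of a type and less RNA per cell cannot be told apart. Testing required a mean of 1 TPM across the libraries, which 5 of the 6 receptors reached. NTRK2, the receptor for brain-derived neurotrophic factor, was listed at 0 TPM in all 8 libraries and was too low to test. ERBB2 entered with a mean of 1.01 TPM, just above that minimum.

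The labelled cell type was checked against marker genes. Of 14 neuroblast markers 13 reached 1 TPM on average, with summed levels of 751 to 855 TPM with CR31B and 701 to 870 TPM with DMSO, and TH, at 0.908 TPM, was the exception. HAND2 and TBX2 rose, with log2 fold changes of 0.58 and 0.95 (adjusted p by limma of 0.0188 and 0.0285), and the part of this in the receptor results was not tested. Of 11 mesenchymal markers 5 were tested, with sums of 161 to 199 and 142 to 212 TPM, and the other 6 were under 1 TPM, with PRRX1 listed at 0. The 6 Schwann and glial markers summed to 0.610 to 1.36 TPM with CR31B and 0.850 to 2.40 TPM with DMSO, with SOX10 listed at 0. The 6 blood cell markers summed to at most 0.0800 TPM in any library, with HBA1, HBB and CD3E listed at 0. Protein-coding genes took 51.8% to 61.3% of TPM in CR31B and 52.0% to 58.4% in DMSO libraries. Replicate 3 stood apart in both groups, with the fewest genes above 0 TPM (17857 in CR31B and 19043 in DMSO, against 19189 to 22270 in the other 6 libraries). Each CR31B library also had fewer than the DMSO library of the same number. The other CR31B libraries had 19539, 19189 and 19758 (replicates 1, 2 and 4), and the DMSO ones 21217, 21255 and 22270. The part of this in the results was not tested.

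Of the 5 receptors tested, FGFR1 and ALK fell under CR31B, and RET, NTRK3 and ERBB2 did not pass the test. Over all 11778 genes tested, 7.46% passed an adjusted p by limma of 0.05 in either direction, with 3.45% higher and 4.02% lower in CR31B. Without replicate 3 of both groups, a choice made after NTRK3 had been seen to stand apart there, 1 receptor passed, FGFR1. In the 8 analyses that each left out 1 library, the number was also 1.

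FGFR1 (ENSG00000077782.21), a receptor for fibroblast growth factors, stood at 9.28, 7.43, 5.53 and 9.75 TPM in replicates 1 to 4 of CR31B. In replicates 1 to 4 of DMSO it stood at 20.54, 19.63, 23.55 and 27.26 TPM. Every CR31B library lay below every DMSO library, and the level was lower in each of the 4 replicate pairs. The means were 8.0 ± 1.93 (CR31B) and 22.7 ± 3.44 TPM (DMSO; SD, n = 4 per group), a ratio of 0.352. The log2 fold change on the log2(TPM + 1) scale was -1.42 (standard error 0.18, 95% confidence interval -1.81 to -1.03, adjusted p by limma of 0.00193). The exact permutation test over libraries, two-sided, gave p = 0.0286, the smallest that 4 against 4 can give. Only 45 of the 11778 genes had a lower log2 fold change. The FGFR1 call held in 18 of 18 alternatives, with a log2 fold change from -1.51 to -1.27 when single libraries were left out. LETM2, on the opposite strand, shares 1.0% of the FGFR1 exon bases and averaged 0.961 TPM.

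ALK (ENSG00000171094.18), the receptor for the ALKAL cytokines, stood at 3.74, 3.72, 4.41 and 4.73 TPM in replicates 1 to 4 of CR31B. The DMSO libraries stood at 6.72, 5.95, 6.41 and 5.74 TPM. Here too the groups did not overlap, as for 16.2% of all genes tested, and the level was lower in CR31B in each of the 4 pairs. The means were 4.15 ± 0.502 and 6.21 ± 0.443 TPM (SD, n = 4 per group), a ratio of 0.669. Its log2 fold change was -0.49 (standard error 0.13, 95% confidence interval -0.77 to -0.21, adjusted p by limma of 0.0416, p by exact permutation of 0.0286). The ALK call held in 6 of 17 alternatives. It was lost whichever single library was left out, CR31B or DMSO, with log2 fold changes from -0.541 to -0.447 and adjusted p by limma from 0.0586 to 0.121. It was also lost without replicate 3 of both groups (adjusted p by limma of 0.0907), with no filter on low values (0.0775) and after rescaling over protein-coding genes (0.0548).

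**Figure D1:**
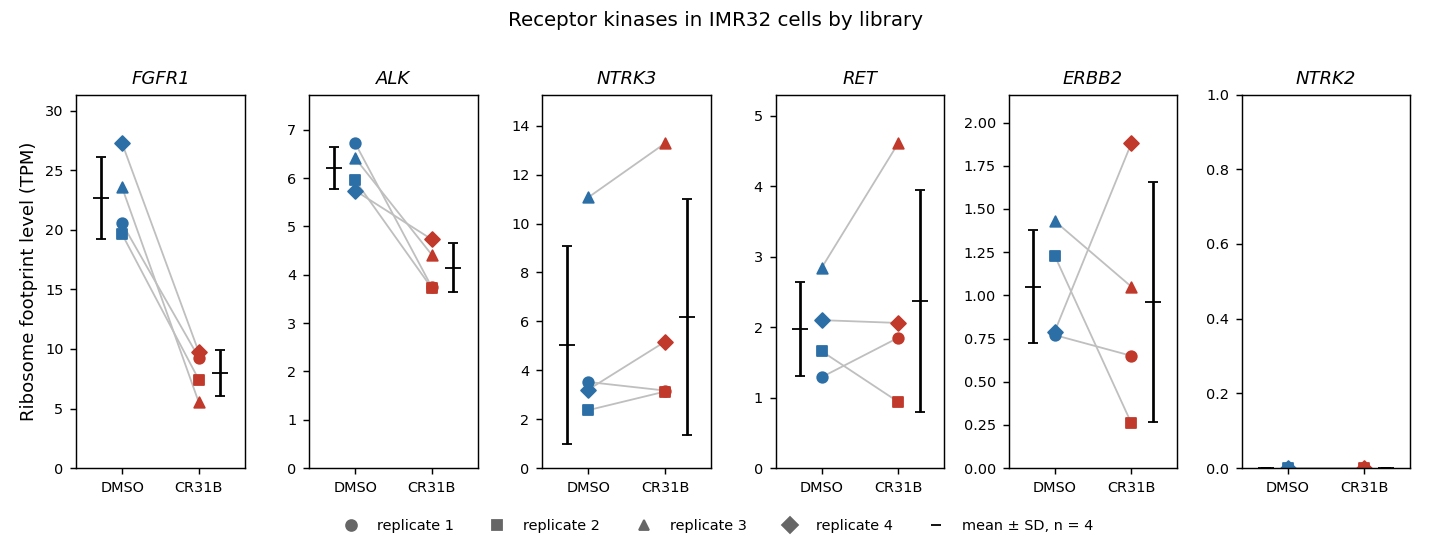
Footprint level in TPM (vertical axis, linear, a separate scale per gene) of the 6 receptor genes in DMSO and CR31B libraries. Marker shapes give the replicate number, grey lines join libraries of the same number, and black bars give the mean ± SD of 4 libraries. FGFR1 (5.53 to 9.75 TPM in CR31B) and ALK (3.72 to 4.73 TPM in CR31B) were below all DMSO libraries, NTRK3 was highest in replicate 3 of both groups, and NTRK2 was listed at 0.

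NTRK3 (ENSG00000140538.16), the receptor for neurotrophin-3, stood at 3.17, 3.13, 13.28 and 5.17 TPM in replicates 1 to 4 of CR31B. It stood at 3.52, 2.37, 11.07 and 3.21 TPM in replicates 1 to 4 of DMSO. The libraries of replicate 3 were the highest of both groups, and the groups overlapped. For NTRK3 the log2 fold change was 0.24 (standard error 0.46, 95% confidence interval -0.77 to 1.26, adjusted p by limma of 0.801, p by exact permutation of 0.600), with a higher level in CR31B in 3 of 4 pairs. The NTRK3 interval is the widest of the 5 receptors. The sign rested on 1 library, the estimate being -0.155 without CR31B replicate 3. The libraries of replicate 3 are also those with the fewest genes above 0 TPM, and the part of that in the NTRK3 and RET values was not tested. NTRK3 has full-length forms and forms without a kinase domain, which values per gene do not separate.

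RET (ENSG00000165731.20), which signals with GFRA co-receptors for GDNF-family ligands, stood at 1.85, 0.94, 4.61 and 2.06 TPM in replicates 1 to 4 of CR31B. The DMSO values were 1.29, 1.66, 2.84 and 2.10 TPM. Replicate 3 was again the highest of each group, and CR31B spanned the whole DMSO range. Its log2 fold change was 0.097 (standard error 0.30, 95% confidence interval -0.56 to 0.75, adjusted p by limma of 0.885, p by exact permutation of 0.857). The RET estimate changed sign with single libraries. It was -0.185 without CR31B replicate 3, -0.0195 without DMSO replicate 1 and -0.0528 without replicate 3 of both groups.

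ERBB2 (ENSG00000141736.14), which has no known ligand of its own and pairs with other ERBB receptors, stood at 0.65, 0.26, 1.05 and 1.88 TPM in replicates 1 to 4 of CR31B. The DMSO libraries stood at 0.77, 1.23, 1.43 and 0.79 TPM. Both the lowest and the highest of the 8 values were CR31B libraries. For ERBB2 the log2 fold change was -0.12 (standard error 0.25, 95% confidence interval -0.67 to 0.43, adjusted p by limma of 0.822, p by exact permutation of 0.714), and it was 0.0693 without CR31B replicate 2. MIEN1 and PGAP3 on the opposite strand share 5.5% and 1.9% of the ERBB2 exon bases, and MIEN1 averaged 7.16 TPM. Whether the counting used strand is not given in the sources used here, so reads of ERBB2 and of MIEN1 in the shared bases cannot be told apart.

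The reads behind these levels were estimated from the TPM value of 1 read in each library and the coding length. Coding length was used in place of the longer transcript length, so these are the smaller estimates. The place of NTRK3 among the receptors depends on that choice, with 2475 coding bases in a transcript of 19984 nt. The estimates ran from 600 to 5442 reads per library for FGFR1, from 943 to 2697 for ALK and from 419 to 1452 for NTRK3. They ran from 170 to 678 for RET and from 53 to 432 for ERBB2. ERBB2 thus rested on the fewest reads.

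By mean level in DMSO the order was FGFR1, ALK, NTRK3 (5.04 ± 4.05 TPM), RET (1.97 ± 0.666 TPM) and ERBB2 (1.05 ± 0.328 TPM; SD, n = 4 per group). FGFR1 lay above ALK in every DMSO library, whereas the ranges of ALK and NTRK3, of NTRK3 and RET, and of RET and ERBB2 overlapped. In CR31B the order was FGFR1, NTRK3 (6.19 ± 4.82 TPM), ALK, RET (2.37 ± 1.57 TPM) and ERBB2 (0.960 ± 0.693 TPM; SD, n = 4 per group), and the ranges of each pair of neighbours overlapped. Among 58 receptor tyrosine kinase genes FGFR1 ranked 3 by mean level in DMSO and 6 in CR31B. ALK ranked 9 and 11, and NTRK3 ranked 12 and 9. FGFR1 took 9.30% to 13.8% of the summed TPM of the 58 genes in DMSO libraries and 1.83% to 4.54% in CR31B libraries. The 6 receptors together came to 37.0 ± 6.55 TPM in DMSO, with libraries from 30.8 to 45.3, and to 21.7 ± 5.86 TPM in CR31B, from 15.5 to 28.9 (SD, n = 4 per group). Most of that difference was FGFR1, whose mean was 22.7 TPM in DMSO and 8.0 TPM in CR31B. ALK and ERBB2 had lower means in CR31B, and NTRK3 and RET had higher ones. The sum of all 58 was 212 ± 27.7 TPM in DMSO and 229 ± 53.3 TPM in CR31B (SD, n = 4 per group), with overlapping ranges.

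Whether 2 receptors responded differently was tested on their log2 ratio within each library, for the 10 pairs of tested receptors. The log2 change of ALK minus that of FGFR1 was 0.93 (standard error 0.22), and that of RET minus that of FGFR1 was 1.51 (standard error 0.45). For FGFR1 minus ERBB2 it was -1.30 (standard error 0.32). In each of these 3 pairs the ratios of CR31B and DMSO libraries did not overlap, and the exact permutation p was 0.0286 before and 0.0952 after Benjamini-Hochberg adjustment over the 10 pairs. None of the 10 pairs passed 0.05 after adjustment, and no other pair reached the unadjusted p of 0.0286, the smallest the design gives. With only 3 of 10 pairs at that smallest p, none could pass after adjustment, however large its difference. The adjusted result therefore cannot decide whether these receptors responded differently. The ALK to RET ratio changed by -0.59 (standard error 0.33) and was lower in CR31B in 4 of 4 pairs (p by exact permutation of 0.114, adjusted 0.229).

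The relatives FGFR2, FGFR3, FGFR4 and EGFR did not pass the test. FGFR2 had a log2 fold change of -0.56 (standard error 0.17, adjusted p by limma of 0.0787), and its libraries stood at 0.77 to 1.21 TPM with CR31B and at 1.29 to 2.51 TPM with DMSO, without overlap. FGFR3 and FGFR4 had log2 fold changes of 0.27 and 0.28 (adjusted p by limma of 0.367 and 0.444). EGFR had one of 0.034 (adjusted p by limma of 0.917).

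Among all 52 other receptor tyrosine kinases, 21 reached 1 TPM on average and 2 of these passed, or 9.52% against 7.46% of all genes. Their median log2 fold change was 0.034, against 0.029 over all genes. DDR2, a collagen receptor and the most abundant of the receptors, rose. Its levels were 111.5, 68.41, 158.37 and 88.94 TPM in replicates 1 to 4 of CR31B and 51.49, 40.67, 67.85 and 45.91 TPM in replicates 1 to 4 of DMSO. The groups did not overlap, and the log2 fold change was 0.996 (standard error 0.24, adjusted p by limma of 0.0332). The DDR2 call was lost without CR31B replicate 1, 3 or 4 or DMSO replicate 1, 2 or 4, with adjusted p by limma up to 0.0968. IGF1R, the receptor for insulin-like growth factor, fell by 2.01 on the log2 scale (standard error 0.27, adjusted p by limma of 0.00253), the only receptor with a lower estimate than FGFR1. With the replicate number as a block, DDR1 passed as well (log2 fold change -0.48, adjusted p by limma of 0.0458, and 0.126 without the block).

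**Figure D2:**
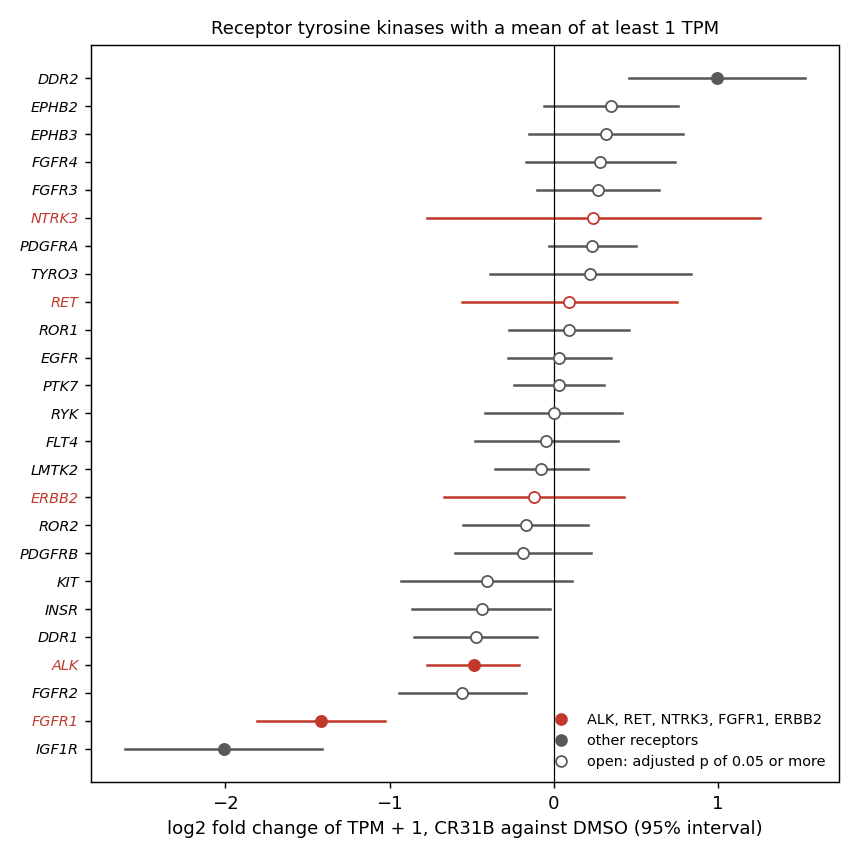
Log2 fold change of TPM + 1 in CR31B against DMSO (horizontal axis) with the 95% confidence interval from limma for 25 of the 26 receptor tyrosine kinases with a mean of at least 1 TPM. Red marks ALK, RET, NTRK3, FGFR1 and ERBB2, and filled points had an adjusted p under 0.05. FGFR1 at -1.42 and IGF1R at -2.01 lie lowest, and NTRK3 has a wide interval, from -0.77 to 1.26.

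Of 32 ligand and growth factor genes, 7 could be tested, and PTN and FGF13 fell, or 28.6% against 7.46% of all genes. The median log2 fold change of the 7 was -0.19. The 7 include FGF11, FGF12, FGF13 and FGF14, which stay inside the cell and are not receptor ligands. PTN encodes pleiotrophin, a heparin-binding growth factor. It stood at 8.19, 9.71, 10.44 and 8.26 TPM in replicates 1 to 4 of CR31B and at 25.34, 20.34, 22.87 and 19.67 TPM in replicates 1 to 4 of DMSO, without overlap. For PTN the log2 fold change was -1.18 (standard error 0.13, adjusted p by limma of 0.000985). FGF13, a fibroblast growth factor homologue that stays inside the cell and is not a receptor ligand, had means of 4.00 ± 0.901 and 9.84 ± 1.73 TPM (SD, n = 4 per group) and a log2 fold change of -1.12 (standard error 0.17, adjusted p by limma of 0.00404). MDK, the most abundant gene of the list, encodes midkine, a relative of pleiotrophin. It stood at 378.22 to 501.54 TPM with CR31B and at 558.74 to 903.22 TPM with DMSO, with no overlap. MDK had a log2 fold change of -0.59 (standard error 0.17), and its adjusted p by limma was 0.0624 and 0.0155 with the replicate block. The dedicated ligands ALKAL1, ALKAL2, GDNF, BDNF and NTF3 were under 1 TPM on average and were not tested.

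Of 24 co-receptor and modulator genes 14 were tested, and SDC2 and GFRA2 fell, or 14.3% against 7.46% of all genes. The list had a median log2 fold change of -0.18. SDC2, a heparan sulfate proteoglycan that can present fibroblast growth factors, stood at 22.55, 20.89, 21.99 and 19.01 TPM in replicates 1 to 4 of CR31B. In replicates 1 to 4 of DMSO it stood at 75.62, 63.28, 74.88 and 73.04 TPM, so each group was narrow and far from the other. Its log2 fold change was -1.72 (standard error 0.11, adjusted p by limma of 8.29e-05). GFRA2, the RET co-receptor for neurturin, was the most abundant gene of the list, at 108 ± 7.88 (CR31B) and 159 ± 23.9 TPM (DMSO; SD, n = 4 per group). The GFRA2 log2 fold change was -0.54 (standard error 0.13, adjusted p by limma of 0.0278). That call was lost without CR31B replicate 2 or 4 or DMSO replicate 1 or 4 (adjusted p by limma up to 0.0809) and without replicate 3 of both groups. GFRA1, the co-receptor for GDNF, had a log2 fold change of -0.29 (adjusted p by limma of 0.466). GPC2, a glypican of neuronal cells, had one of -0.62, with an adjusted p by limma of 0.108 and of 0.0308 with the replicate block.

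Among 26 tested of 35 adaptor and RAS-MAPK cascade genes 2 passed, 1 in each direction, or 7.69% against 7.46% of all genes, and the median log2 fold change was -0.065. PTPN11, which encodes the phosphatase SHP2 and carries signals from many receptors to RAS, fell. It stood at 9.88 to 11.65 TPM with CR31B and at 14.00 to 18.72 TPM with DMSO, with a log2 fold change of -0.59 (standard error 0.12, adjusted p by limma of 0.0177). The PTPN11 call was lost without CR31B replicate 4 or DMSO replicate 4 (adjusted p by limma up to 0.0648), and its exons overlap the more abundant RPL6 on the opposite strand, at 338 TPM, over 1.6% of their bases. FRS2, the docking adaptor of FGF and TRK receptors and the most abundant gene of the list, had a log2 fold change of 0.75 (standard error 0.29). Its adjusted p by limma was 0.155, and 0.0196 with the replicate block. FRS2 also passed without DMSO replicate 3, which at 60.51 TPM was the only DMSO library inside the CR31B range of 48.59 to 84.12 TPM.

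Of 29 genes that attenuate receptors or RAS 19 were tested, and 3 passed, or 15.8% against 7.46% of all genes, with a median log2 fold change of 0.060. DUSP6, the phosphatase that switches off ERK, rose from 1.96 ± 0.327 to 5.25 ± 1.28 TPM under CR31B (SD, n = 4 per group). Its values were 5.74, 3.79, 4.71 and 6.74 TPM in replicates 1 to 4 of CR31B and 2.21, 1.98, 1.49 and 2.15 TPM in replicates 1 to 4 of DMSO. The DUSP6 log2 fold change was 1.06 (standard error 0.17, adjusted p by limma of 0.00643), and the call held in 17 of 17 alternatives. An antisense gene, AC024909.2, shares 40.5% of the DUSP6 exon bases and averaged 0.031 TPM. The ubiquitin ligase NEDD4 rose, with a log2 fold change of 0.78 (standard error 0.19, adjusted p by limma of 0.0331), and its paralog NEDD4L fell, with one of -0.64 (standard error 0.13, adjusted p by limma of 0.0155). The NEDD4 call was lost without CR31B replicate 1, 2 or 3 or DMSO replicate 1, 2 or 4 (adjusted p by limma up to 0.102), and that of NEDD4L without DMSO replicate 4 (0.0532). RNF41, the most abundant of the list and a ligase for ERBB receptors, had a log2 fold change of 0.038 (adjusted p by limma of 0.915). SPRED1 had one of 0.63, with an adjusted p by limma of 0.114 and of 0.0276 with the replicate block.

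Of 25 transcripts known to respond to MAPK signalling 13 were tested, and 5 passed, or 38.5% against 7.46% of all genes, with a median log2 fold change of 0.27. Because the list was chosen with earlier results known, this share is a description only. DUSP6 stands in this list too. VGF, a neuropeptide precursor, rose from 83.3 ± 6.42 to 153 ± 44.6 TPM under CR31B (SD, n = 4 per group; log2 fold change 0.83, standard error 0.18, adjusted p by limma of 0.0246). The ETS transcription factors ETV5 and ETV1 rose, ETV5 from 26.8 ± 5.46 to 44.9 ± 8.03 TPM and ETV1 from 2.77 ± 0.794 to 5.27 ± 0.877 TPM (SD, n = 4 per group). Their log2 fold changes were 0.73 and 0.75 (standard error 0.18 each, adjusted p by limma of 0.0331 and 0.0318). CCND1, which encodes cyclin D1, went the other way, from 456 ± 74.0 to 234 ± 17.1 TPM under CR31B (SD, n = 4 per group). The CCND1 log2 fold change was -0.95 (standard error 0.14, adjusted p by limma of 0.00355), and its call held in 18 of 18 alternatives. LTO1 on the opposite strand shares 10.3% of the CCND1 exon bases and averaged 14.1 TPM.

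Of the 4 rises in that list, that of DUSP6 held in every alternative run and the other 3 did not. The VGF call was lost without CR31B replicate 4 or DMSO replicate 1 or 4 (adjusted p by limma up to 0.0774). That of ETV5 was lost without CR31B replicate 1, 2 or 4 or DMSO replicate 2, 3 or 4 (up to 0.0920), and that of ETV1 without CR31B replicate 1, 3 or 4 or DMSO replicate 2, 3 or 4 (up to 0.0933) or replicate 3 of both groups. With no filter on low values, the calls of VGF, ETV5, ETV1, NEDD4, GFRA2 and DDR2 were lost. For VGF, ETV5, ETV1, DUSP6 and CCND1 the CR31B and DMSO ranges did not overlap.

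**Figure D3:**
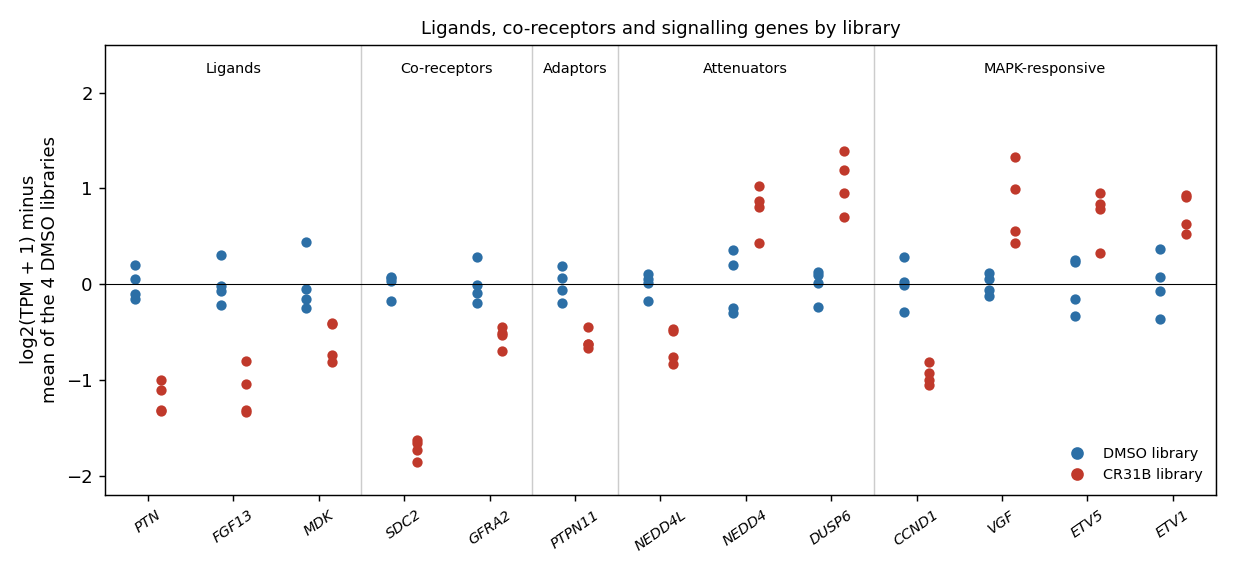
Log2(TPM + 1) minus the mean of the 4 DMSO libraries (vertical axis) for 13 ligand, co-receptor, adaptor, attenuator and MAPK-responsive genes, with 1 point per library. PTN, FGF13, MDK, SDC2, GFRA2, PTPN11, NEDD4L and CCND1 were lower in all 4 CR31B libraries than in any DMSO library, and NEDD4, DUSP6, VGF, ETV5 and ETV1 were higher. All but MDK (adjusted p by limma of 0.0624) passed the test.

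The genes whose levels followed each receptor most closely were listed by Pearson correlation of log2(TPM + 1) over the 8 libraries, among genes of at least 10 TPM. These are descriptions, and for receptors that differ between the groups a high r includes that difference. For ALK they were IGF1R (r = 0.992) and DCBLD2, a transmembrane scaffold protein (r = 0.987). For FGFR1 they were HS2ST1, a heparan sulfate sulfotransferase (r = 0.985), and MAPK8, a stress-activated kinase (r = 0.982). For RET they were RIMBP2, a presynaptic scaffold (r = 0.974), and NQO1, a quinone reductase (r = 0.967). NTRK3 was followed by HPF1 (r = 0.949). The closest to ERBB2 were FASTKD1 (r = 0.898) and ACBD3 (r = 0.870), which were the weakest of these correlations.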

How the data were processed

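The authors deposited 1 table of TPM values per gene for the 8 libraries, rounded to 0.01 TPM, with 1 column per library and no table columns left over. Per the submitters' processing notes, the build was hg38 (GRCh38) and the tools included cutadapt version 3.2, Bowtie2 version 2.3.4.1, STAR version 2.7.1a and RSEM version 1.2.28. Their order, the annotation and the strand setting are not given in the sources used here. TPM does not give the read depth of the libraries directly. The value of 1 read was estimated per library from short genes with 1 transcript. Of their low values 62.5% to 68.6% lay within 0.15 of a whole number of reads, so read numbers are approximate. In TPM times bases, 1 read was worth 16.1, 18.5, 22.7 and 20.0 in replicates 1 to 4 of CR31B. In those of DMSO it was worth 14.0, 10.7, 18.9 and 12.4. A higher value goes with fewer reads. By this estimate each CR31B library was shallower than its same-numbered DMSO library, and replicate 3 was the shallowest of each group. The part of depth in the results was not tested.

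Symbols were matched for 60481 identifiers. Values were analysed as log2(TPM + 1), which understates the change of low genes. The 11778 genes that averaged 1 TPM or more were fitted with limma version 3.58.1 in R version 4.3.3 (lmFit, eBayes with trend), with treatment as the only term and Benjamini-Hochberg adjustment over all genes tested. The fit was tested on simulated data. Single values were compared by two-sided exact permutation over 70 assignments. Gene models came from GENCODE release 29. Python version 3.11.15 with SciPy version 1.17.1 served for the rest.

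The 6 receptors, the 6 gene lists and the 4 marker lists were chosen with earlier results of these data known. The text names all 6 receptors and, in each list, the genes that passed and the most abundant gene; the other relatives, ligands and cascade genes named were chosen after their values were seen. For each tested receptor the 2 genes with the closest pattern were taken. Some items that these rules select are not reported here. Same-numbered libraries of the 2 groups deviated together across genes, with correlations of 0.333, 0.324, 0.301 and 0.105 for replicates 1 to 4, so the numbers were treated as pairs in an alternative with the replicate block. Further alternatives were other pseudocounts (0.1 and 5), other filters, other scalings, no variance trend and leaving out each library.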

Additional observations from a re-analysis of the deposited data

Results flagged for a closer look

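NTRK3 stood at 11.07 TPM in DMSO replicate 3, against 2.37 to 3.52 TPM in the other 3 DMSO libraries. The gap to the nearest of them was 0.868 of the group's whole range. Of 40 groups of 4 libraries examined (5 tested receptors, and 15 list genes that passed the test, in 2 treatments), 1 held such a library. The 15 list genes were taken because they passed, which favours a small spread within groups. A chance rate therefore cannot be set against this number. CR31B replicate 3 was also the highest of its group for NTRK3, at 13.28 TPM against 3.13 to 5.17 TPM, but was not flagged.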

How the results depend on the processing

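FGFR1 kept its direction and its call in the 18 alternatives. With the replicate block both FGFR1 and ALK passed, and 1453 genes passed in all (680 higher, 773 lower) against 879 without it, with 13 against 8 lower in the 6 lists together. Of the 6 receptors none gained or lost its call under the block. In the 6 lists genes that gained one include DDR1, MDK, GPC2, NCAM1, FRS2, SPRED1 and MAFF, as did the markers DBH, DDC and COL1A1, and no list or marker gene lost one. The number of receptors that passed was 1 with a mean of at least 10 TPM, which leaves only FGFR1, with no filter on low values, after rescaling over protein-coding genes, without replicate 3 of both groups and without any single library. ALK was at -0.487 with no filter, -0.457 after rescaling and -0.499 without replicate 3 of both groups, and from -0.541 to -0.447 without single libraries. Without single libraries RET ran from -0.185 to 0.326 (-0.0528 without replicate 3 of both groups), NTRK3 from -0.155 to 0.641 and ERBB2 from -0.328 to 0.0693. The difference of RET and ERBB2 ran from -0.0201 to 0.435 and that of RET and NTRK3 from -0.412 to 0.0252. Over the whole table the calls ran from 405 to 785 without single libraries (197 to 393 higher, 208 to 486 lower), and were 1139 with median-ratio scaling and 1174 with quantile normalization. They were 442 (181 and 261) with no filter and 581 (251 higher) without replicate 3 of both groups, and after rescaling 670 were higher and 566 lower, against 406 and 473. In the 6 lists together, 7 genes were higher, with 2 to 6 without single libraries, 4 at a mean of at least 10 TPM and 3 with no filter; 8 were lower, with 5 to 9 without single libraries. The median of the ligand list was -0.593 at 10 TPM, -0.392 with pseudocount 0.1 and -0.344 to -0.088 without single libraries. That of the MAPK-responsive list was 0.459, 0.477 and 0.267 to 0.616, and 0.134 with no filter; that of the adaptor list was 0.0124 with no filter. Alternatives with fewer libraries have fewer degrees of freedom, and the cause of the other changes was not tested. Of the 5 receptors tested, ERBB2 had the fewest estimated reads, from 53 to 432 per library.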
